A study of Rattus norvegicus with 12 samples.

Results

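*Vtcn1* and 6 other genes of the B7 family, *Cd274*, *Pdcd1lg2*, *Cd276*, *Icoslg*, *Cd80* and *Cd86*, were followed in RNA-seq libraries of rat ovary. The members were found by gene symbol, which gave 7 of the 19730 genes with a value, 1 gene identifier each. *Vtcn1* was chosen by its measured values, because its FPKM was much lower in the PCOS than in the Control libraries, and the other 6 were taken for their family name. The *Vtcn1* difference between PCOS and Control is therefore a description and carries no test. FPKM (fragments per kilobase of transcript with the mapped fragments of each library scaled to a common total) is a level per transcript length, so that different genes can be compared on it.

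The libraries came from ovaries of female wild type Sprague Dawley rats at postnatal week 15, with 4 libraries in each of 3 groups. The Control group was untreated and ate standard food. The PCOS group, a model of polycystic ovary syndrome, had received letrozole, an inhibitor of the estrogen-making enzyme aromatase, for 30 days. A high-fat diet was given with it according to the study's methods. The PCOS-MV group had the same treatment, followed by 30 days of mogroside V, a sweet glycoside of monk fruit. Rats entered the PCOS and PCOS-MV groups only if their vaginal smears stayed in metestrus and diestrus, and the methods describe no vehicle gavage for the Control rats or for the PCOS rats in the second period. According to the methods, ovaries of 4 rats per group were sequenced, so that each library stands for 1 rat. The cycle stage at sampling is not given in the sources used here. The granulosa, luteal and theca markers *Fshr*, *Lhcgr* and *Cyp17a1*, in this order, were detected in all 12 libraries, as in ovary. The depth of the libraries is unknown. From the steps between low values, the other libraries had 0.917 to 1.12 times the depth of Control replicate 1. One library stood apart: Control replicate 3 was high in epithelial and ciliated cell markers, as given below.

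B7 proteins are immunoglobulin-type ligands on antigen-presenting cells and on many other cells. They bind receptors of the CD28 family on T cells, where they either add to the signal of the T cell receptor or hold it back. CD80 and CD86 bind the activating receptor CD28 and the inhibitory receptor CTLA4, ICOSLG binds ICOS, and PD-L1 (*Cd274*) and PD-L2 (*Pdcd1lg2*) bind the inhibitory receptor PD-1 (*Pdcd1*). B7-H4 (*Vtcn1*) and B7-H3 (*Cd276*) have no receptor that is generally accepted, and B7-H4 is known as an inhibitor of T cells that epithelia of the reproductive tract carry.

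The promoter windows of the 2 most abundant members are shown because the genes behaved differently across the groups and because the windows differ in composition. Each window holds the 250 bases before and the 50 bases after the gene's start in RefSeq on the GRCr8 assembly, 5′ to 3′ on the gene's strand. The window of *Vtcn1* is at chr2:190941974-190942273 on the plus strand, and that of *Cd276* is at chr8:67863869-67864168 on the minus strand. Capitals mark matches to the motifs searched.
Vtcn1: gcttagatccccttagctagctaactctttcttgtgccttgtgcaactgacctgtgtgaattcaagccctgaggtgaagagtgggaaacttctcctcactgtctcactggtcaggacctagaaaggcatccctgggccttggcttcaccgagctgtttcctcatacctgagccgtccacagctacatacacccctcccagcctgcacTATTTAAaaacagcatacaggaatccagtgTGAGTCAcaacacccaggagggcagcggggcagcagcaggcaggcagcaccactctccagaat
Cd276: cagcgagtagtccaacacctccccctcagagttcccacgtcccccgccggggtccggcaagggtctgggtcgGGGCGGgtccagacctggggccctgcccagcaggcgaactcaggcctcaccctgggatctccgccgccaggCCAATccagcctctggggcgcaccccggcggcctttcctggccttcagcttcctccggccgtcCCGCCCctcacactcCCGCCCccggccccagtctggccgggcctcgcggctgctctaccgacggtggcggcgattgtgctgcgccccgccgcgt

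The *Vtcn1* window held 3 CpG dinucleotides, and 22.3% of the 33469 RefSeq windows of the same length held fewer. Counted from the annotated start, it had the letters TATTTAA at -43 and a match to the AP-1 motif TGANTCA at -13. TATTTAA, which was added to the search after the window had been seen, occurred in 4.58% of all windows, and TGANTCA occurred in 7.33%. In contrast, the *Cd276* window held 29 CpG dinucleotides and was 74% G or C, and 88.5% of windows held fewer CpG. It had the GC box GGGCGG at -178, its reverse complement at -44 and -29, and CCAAT at -107. These motifs occurred in 33.1% and 37.5% of all windows. Further motifs were searched on both strands and were in neither printed window. These were the TATA box TATAAA (in 14.2% of all windows), the NR5A motif AAGGTCA (4.61%), the GAS motif TTCNNNGAA of STAT factors (8.87%) and the core of the interferon-stimulated response element (3.92%). Palindromic motifs match on both strands at once and were counted once. A match is a description of letters, and binding and start sites were not measured here.

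*Vtcn1* (ENSRNOG00000015279, chromosome 2, 203200427 to 203276142, plus strand, protein coding, in the coordinates of the authors' file, whose build is not given in the sources used here) was the most abundant member in the Control group. The 4 Control libraries had 65.0, 107, 99.2 and 99.0 FPKM. The 4 PCOS libraries had 7.67, 4.72, 15.0 and 7.21 FPKM, and every one of them lay below every Control library. The PCOS-MV libraries had 83.1, 65.7, 247 and 87.8 FPKM, so that 3 of the 4 lay within the Control range and replicate 3 stood far above it.

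**Figure D1:**
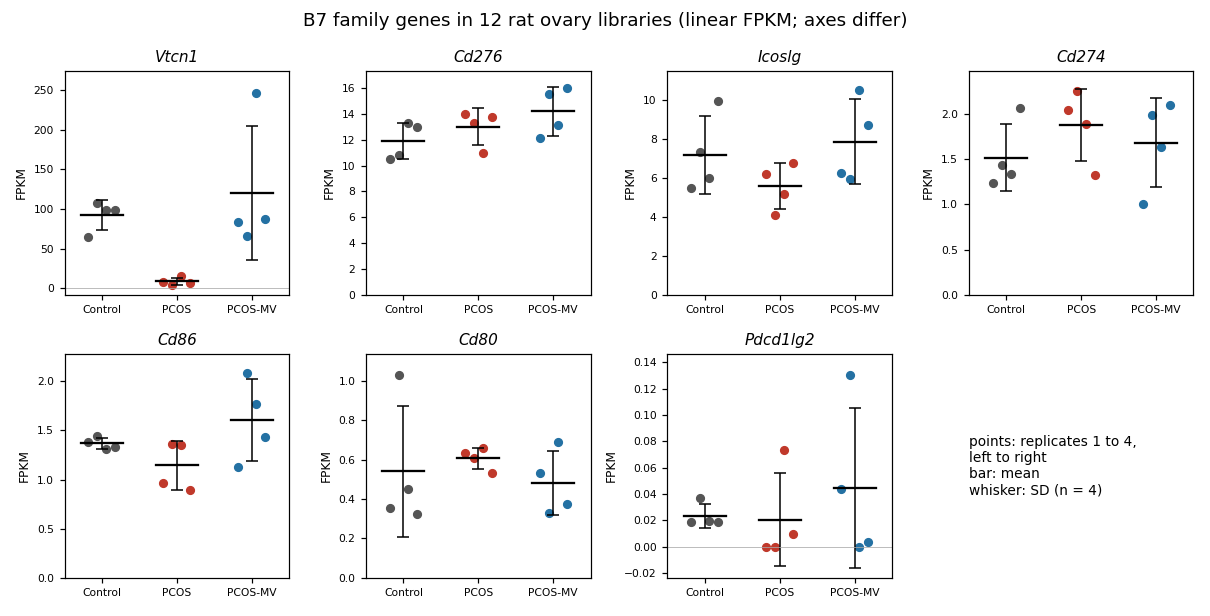
FPKM (linear vertical axes that differ between panels) of the 7 B7 family genes in the 3 groups, with 1 point per library, the mean as a bar and the SD as whiskers (n = 4). The 4 PCOS libraries of *Vtcn1* (4.72 to 15.0 FPKM) lie below the other 8 (65.0 to 247 FPKM), while the groups of each other member overlap.

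The mean *Vtcn1* level was 92.6 ± 18.8 FPKM in the Control group, 8.64 ± 4.41 in the PCOS group and 121 ± 84.5 in the PCOS-MV group (SD, n = 4 each). The Control mean was 10.7 times the PCOS mean. On the log2(FPKM + 1) scale, which is used for all differences here and compresses those of weakly expressed genes, the mean of the PCOS libraries was 3.36 lower (SE 0.29). These are the values that chose the gene. Without Control replicate 3 the difference was -3.32. Since these are bulk samples, fewer cells that carry a transcript and less of it per cell cannot be told apart, here and in the results that follow.

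Compared with the PCOS group, *Vtcn1* was higher in the PCOS-MV group by 3.55 on the log2 scale (SE 0.44, 95% interval 2.55 to 4.55, limma, adjusted p = 0.00091). The 4 libraries of each group did not overlap, as in 30% of all genes tested. The exact two-sided permutation p was 0.0286, the smallest that 4 libraries against 4 can give. The PCOS libraries also entered the choice of the gene, so this test is not independent of it. The result did not rest on the high library: without PCOS-MV replicate 3 the difference was 3.14 (adjusted p = 0.00058). With any 1 of the 8 libraries left out, it ranged from 3.14 to 3.83 and passed the threshold of 0.05 each time.

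Between the PCOS-MV and Control groups, the *Vtcn1* difference of 0.20 (SE 0.39) did not pass the test (limma, adjusted p = 0.891), with a 95% interval from -0.69 to 1.08. The Control libraries, too, had entered the choice. The interval holds differences of up to about 1 on the log2 scale in either direction. PCOS-MV replicate 3 alone set the sign, since without it the difference was -0.22 (adjusted p = 0.647).

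The rank of *Vtcn1* within each library restates the FPKM values that chose the gene and is given as a description. Among the 13430 genes tested, those that reached 1 FPKM on average over the 12 libraries, it stood above 92.6% to 96.4% of genes in the Control libraries. In the PCOS libraries it stood above 29.5% to 65.6%, and in the PCOS-MV libraries above 93.2% to 98.8%. Of the summed FPKM of the 7 members, *Vtcn1* held 77.3% to 82.9% in the Control libraries, 17.9% to 42.7% in the PCOS libraries and 71.6% to 89.9% in the PCOS-MV libraries. The sum of the other 6 members was 19.1 to 26.7 FPKM, 20.1 to 23.9 FPKM and 21.1 to 28.7 FPKM in the same order, so that these ranges overlapped.

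The order of the members was otherwise alike in the 3 groups. By mean FPKM in the Control group it was *Vtcn1*, *Cd276*, *Icoslg*, *Cd274*, *Cd86*, *Cd80* and *Pdcd1lg2*, and the ranges of neighbours did not overlap except for *Cd274* and *Cd86*. The PCOS-MV group had the same order with the same exception. In the PCOS group *Cd276*, at a mean of 13.0 FPKM, came before *Vtcn1*, and the ranges of *Cd276*, *Vtcn1* and *Icoslg* overlapped between neighbours, as did those of *Cd274* and *Cd86*.

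Of the 7 members, 5 reached the minimum of 1 FPKM on average and could be tested, while *Cd80* and *Pdcd1lg2* did not. None of the 4 tested members other than *Vtcn1* differed between PCOS and Control, between PCOS-MV and PCOS, or between PCOS-MV and Control. The same held with each library left out in turn, and their groups overlapped in each comparison. Over all 13430 genes, 11.9% were called higher and 15.6% lower in PCOS than in Control at an adjusted p under 0.05, and in 31% the groups did not overlap. In PCOS-MV compared with PCOS, 14.3% were called higher and 11.4% lower, and 30% did not overlap. In PCOS-MV compared with Control, 0.00745% were called higher, which is the 1 gene *Senp1*, 0% were called lower, and 5.1% did not overlap. At an unadjusted p under 0.05, 1142 genes passed in this last comparison. With 4 genes, a count of 0 against shares of this size is no result about the family. Without Control replicate 3, the differences in PCOS vs Control were 0.17 for *Cd276*, -0.37 for *Icoslg*, 0.16 for *Cd274* and -0.16 for *Cd86*, and none was called. Apart from markers, genomic neighbours and *Tnfrsf9*, the genes outside the family named as called in PCOS vs Control kept their calls without this library.

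**Figure D2:**
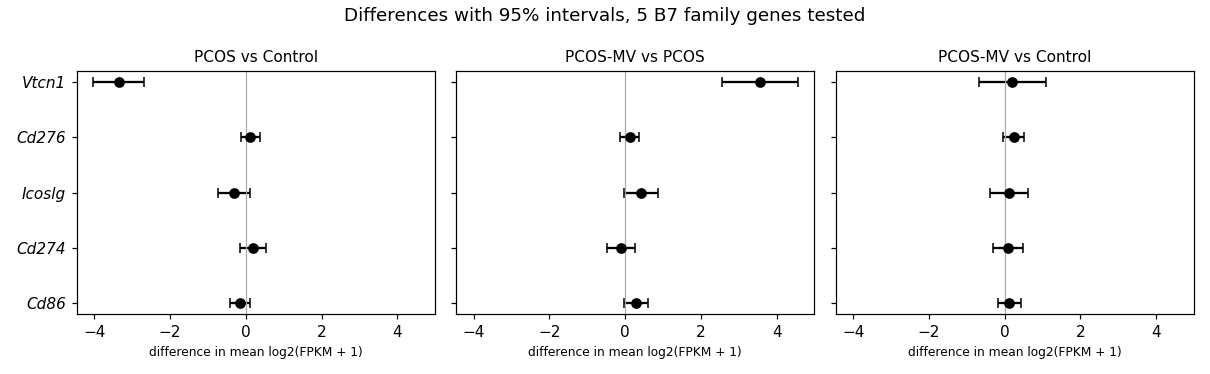
Differences in mean log2(FPKM + 1) (horizontal axis) with 95% intervals for the 5 tested B7 family genes, in the comparisons PCOS vs Control, PCOS-MV vs PCOS and PCOS-MV vs Control (4 libraries against 4). *Vtcn1* lies at -3.36, 3.55 and 0.20, and every interval of the other 4 genes includes 0. The *Vtcn1* value in PCOS vs Control is the one it was chosen by.

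Among the ligands without an accepted receptor, *Cd276* (ENSRNOG00000033608, chromosome 8, 63318019 to 63350269, minus strand), which encodes B7-H3, a protein found on many non-immune cells, had the second-highest level. It measured 10.6, 10.9, 13.3 and 13.0 FPKM in the Control libraries, 14.0, 13.3, 10.9 and 13.8 in the PCOS libraries and 12.1, 15.6, 13.1 and 16.0 in the PCOS-MV libraries. These values lay within a narrow band in all groups. The differences were 0.12 for PCOS vs Control (95% interval -0.12 to 0.36), 0.11 for PCOS-MV vs PCOS (-0.14 to 0.37) and 0.23 for PCOS-MV vs Control (-0.03 to 0.50). None passed the limma test (adjusted p = 0.442, 0.498 and 0.618). Wherever the PCOS group was compared, a change of *Cd276* as large as that of *Vtcn1* thus lies outside the interval. For PCOS-MV vs Control this does not hold, because the *Vtcn1* difference of 0.20 lies inside the *Cd276* interval.

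*Icoslg* (ENSRNOG00000023109, chromosome 20, 11329992 to 11340296, minus strand) encodes the ligand of the T cell costimulator ICOS. It measured 5.50, 7.32, 5.998 and 9.95 FPKM in the Control libraries, 6.23, 4.11, 5.19 and 6.77 in the PCOS libraries and 6.24, 5.97, 10.5 and 8.75 in the PCOS-MV libraries. The lowest value was in a PCOS library, but the groups overlapped. Its difference was -0.31 in PCOS vs Control (95% interval -0.74 to 0.12, limma, adjusted p = 0.263) and 0.42 in PCOS-MV vs PCOS (-0.02 to 0.86, adjusted p = 0.147). For PCOS-MV vs Control it was 0.11 (-0.38 to 0.60, adjusted p = 0.885), and it was -0.02 without PCOS-MV replicate 3, the library in which *Vtcn1* also was highest.

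*Cd274* (ENSRNOG00000016112, chromosome 1, 247519939 to 247537943, plus strand) and *Pdcd1lg2* (ENSRNOG00000016136, chromosome 1, 247562202 to 247627193, plus strand) encode the ligands of the inhibitory receptor PD-1 and are neighbours in the genome. *Cd274* measured 1.24, 1.43, 1.34 and 2.07 FPKM in the Control libraries, 2.05, 2.26, 1.89 and 1.33 in the PCOS libraries and 1.01, 1.99, 1.64 and 2.11 in the PCOS-MV libraries. The Control and PCOS ranges overlapped through 1 library each, Control replicate 4 and PCOS replicate 4. The difference was 0.19 in PCOS vs Control (95% interval -0.15 to 0.53, limma, adjusted p = 0.377), -0.11 in PCOS-MV vs PCOS (-0.48 to 0.26, adjusted p = 0.660) and 0.08 in PCOS-MV vs Control (-0.31 to 0.48, adjusted p = 0.898). *Pdcd1lg2* was listed at 0 in PCOS replicates 1 and 2 and in PCOS-MV replicate 3, and its highest value in any library was 0.131 FPKM, in PCOS-MV replicate 2. At this level no difference was detectable.

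*Cd86* (ENSRNOG00000038835, chromosome 11, 67082193 to 67118795, plus strand) and *Cd80* (ENSRNOG00000001527, chromosome 11, 64827635 to 64855353, minus strand) encode the ligands of CD28 and CTLA4. *Cd86* measured 1.38, 1.45, 1.32 and 1.33 FPKM in the Control libraries, 0.969, 1.37, 1.35 and 0.896 in the PCOS libraries and 1.13, 2.09, 1.77 and 1.43 in the PCOS-MV libraries. The Control libraries spread over the narrowest range of the 3 groups. Its difference was -0.15 in PCOS vs Control (95% interval -0.42 to 0.12, limma, adjusted p = 0.389), 0.27 in PCOS-MV vs PCOS (-0.05 to 0.59, adjusted p = 0.187) and 0.12 in PCOS-MV vs Control (-0.18 to 0.43, adjusted p = 0.787). *Cd80* measured 0.353, 1.03, 0.452 and 0.325 FPKM in the Control libraries, 0.632, 0.608, 0.658 and 0.535 in the PCOS libraries and 0.534, 0.330, 0.689 and 0.376 in the PCOS-MV libraries. The only value above 1 FPKM was that of Control replicate 2. In exact two-sided permutation tests of *Cd80* over 4 libraries against 4, p was 0.629, 0.229 and 0.857 for PCOS vs Control, PCOS-MV vs PCOS and PCOS-MV vs Control.

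Of the 5 receptors of these ligands, *Cd28* and *Rgmb* were abundant enough to be tested, and neither was called in any comparison. *Cd28*, the costimulatory receptor of T cells, ranged from 1.91 to 5.24 FPKM in the Control libraries, from 1.36 to 3.05 in the PCOS libraries and from 1.60 to 4.07 in the PCOS-MV libraries. *Rgmb*, a co-receptor of bone morphogenetic proteins that also binds PD-L2, lay between 7.10 and 9.61 FPKM in all libraries but Control replicate 3, which had 15.0 FPKM. *Ctla4*, the inhibitory receptor for CD80 and CD86, ranged from 0.0473 to 0.378 FPKM over the 12 libraries. *Pdcd1*, which encodes PD-1, was listed at 0 in all 4 Control libraries and reached 0.160 FPKM in PCOS replicate 2.

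*Icos*, the receptor for ICOSLG on activated T cells, was below the minimum of the limma test. It measured 0.557, 0.619, 0.439 and 0.501 FPKM in the Control libraries, 0.289, 0.407, 0.310 and 0.241 in the PCOS libraries and 0.411, 0.896, 0.301 and 0.668 in the PCOS-MV libraries. All PCOS libraries lay below all Control libraries, as the groups did not overlap in 31% of the genes tested, and there was a difference of -0.22 with an exact two-sided permutation p of 0.0286, unadjusted for the 5 receptors and 3 comparisons examined. The PCOS-MV libraries overlapped with both other groups, and p was 0.114 against PCOS and 0.857 against Control. For the 8 T cell markers, the mean log2(FPKM + 1) was 1.65 to 1.85 in the Control, 1.80 to 2.20 in the PCOS and 1.40 to 2.02 in the PCOS-MV libraries. Their part in the *Icos* values was not tested.

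The B7-like and butyrophilin genes are relatives of the B7 family with the same immunoglobulin folds, several of which act on T cells. Of 11 listed genes, 9 had a value and 7 were tested. In PCOS compared with Control, 2 of the 7 were higher and 1 was lower, beside 11.9% and 15.6% of all genes, and the median difference of the 7 was 0.05, beside -0.03 over all genes. In PCOS-MV compared with PCOS, 1 was higher and 1 was lower, beside 14.3% and 11.4%, and the median was 0.34, beside 0.03 over all genes. The 1 lower gene, *Btnl2*, reached the minimum of 1 FPKM only through the PCOS libraries, where it was high. Its part in these counts and medians is therefore no result. None of the 7 was called in PCOS-MV vs Control. These genes resemble one another in sequence, and how reads that fit several of them were counted is not given in the sources used here, so their values are uncertain to that extent.

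*Btn1a1*, which encodes the butyrophilin of milk fat globules, and *Btn2a2*, a butyrophilin that holds back T cells, were the 2 that were higher in PCOS. Both are named after their values were seen. *Btn1a1* measured 4.81, 5.29, 5.24 and 5.57 FPKM in the Control libraries, 16.2, 19.0, 17.5 and 18.7 in the PCOS libraries and 7.91, 20.4, 9.10 and 15.2 in the PCOS-MV libraries. It was thus higher by 1.60 in PCOS than in Control (SE 0.08, limma, adjusted p = 7.09e-06). In PCOS-MV vs PCOS its difference of -0.50 did not pass the test (adjusted p = 0.184). This rested on PCOS-MV replicates 1 and 2, since the difference was -0.31 (adjusted p = 0.368) without the former and -0.73 (adjusted p = 0.0356), a call, without the latter. The PCOS-MV libraries lay above all Control libraries, but the difference of 1.09 did not pass the test across all genes either (adjusted p = 0.459). *Btn2a2* had 2.06 to 2.92 FPKM in the Control and 4.17 to 6.31 FPKM in the PCOS libraries, a difference of 0.77 (SE 0.13, limma, adjusted p = 0.0032). Its PCOS-MV libraries had 2.52 to 4.99 FPKM and overlapped with both other groups.

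*Btnl9*, a butyrophilin-like gene known from endothelium and fat, had the opposite pattern. It measured 4.74, 3.05, 6.09 and 5.26 FPKM in the Control libraries, 2.75, 1.35, 2.34 and 1.34 in the PCOS libraries and 2.99, 5.33, 6.40 and 5.71 in the PCOS-MV libraries. It was lower by 0.98 in PCOS than in Control (SE 0.22, limma, adjusted p = 0.0109) and higher by 1.05 in PCOS-MV than in PCOS (SE 0.23, adjusted p = 0.0121). Of the 6 tested endothelial markers, 5 were lower and 1 higher in PCOS, beside 15.6% and 11.9% of all genes. In PCOS-MV vs PCOS 3 were higher, beside 14.3%. The part of these markers in the *Btnl9* values was not tested. *Btnl2*, which inhibits T cells, had 0.295 to 1.25 FPKM in the Control, 0.972 to 2.55 in the PCOS and 0.199 to 0.539 in the PCOS-MV libraries. It reached the minimum of 1 FPKM through the PCOS libraries, where it was high, so its values come from the fit with no minimum. There it was lower by 0.97 in PCOS-MV than in PCOS (adjusted p = 0.0182), and its difference between PCOS and Control of 0.67 did not pass the test (adjusted p = 0.114).

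**Figure D3:**
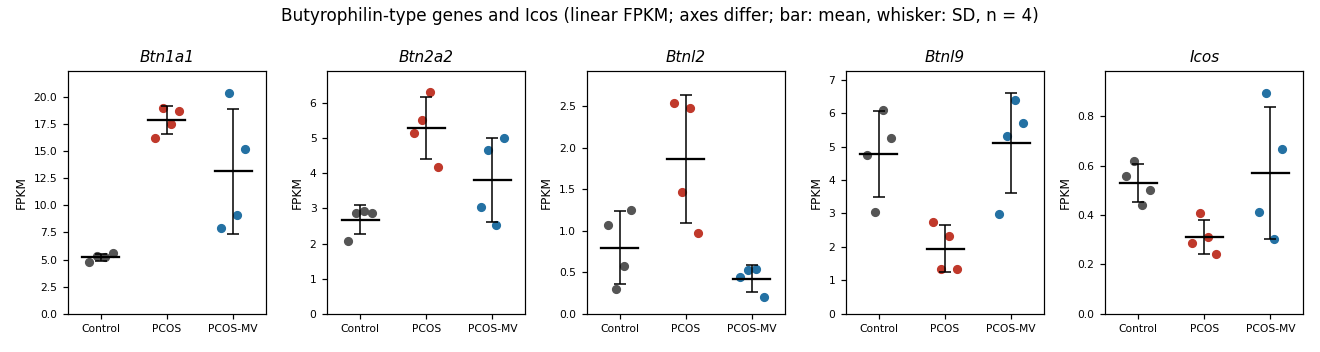
FPKM (linear vertical axes that differ between panels) of *Btn1a1*, *Btn2a2*, *Btnl2*, *Btnl9* and *Icos* in the 3 groups, with 1 point per library, the mean as a bar and the SD as whiskers (n = 4). *Btn1a1* lies at 4.81 to 5.57 FPKM in the Control and 16.2 to 19.0 FPKM in the PCOS libraries, and *Btnl9* and *Icos* are lower in PCOS than in Control.

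The interferon response and the proteins that set the level of PD-L1 were examined because interferon gamma is the best known inducer of *Cd274*. Of 23 tested genes, 11 were higher and 2 lower in PCOS than in Control, beside 11.9% and 15.6% of all genes, and the median difference was 0.46, beside -0.03 over all genes. In PCOS-MV compared with PCOS, 9 were lower and 2 higher, beside 11.4% and 14.3% of all genes, with a median of -0.37 beside 0.03. None was called in PCOS-MV vs Control. With 1 library left out at a time, the count lower in PCOS-MV than in PCOS ranged from 6 to 12 and the count higher from 0 to 3. *Psmb8* and *Psmb9*, subunits of the interferon-induced immunoproteasome that cuts antigens for presentation, had the largest falls in PCOS-MV. *Psmb8* measured 18.9 to 32.3 FPKM in the Control, 73.8 to 93.7 in the PCOS and 24.8 to 57.9 in the PCOS-MV libraries. *Psmb9* measured 13.6 to 20.3, 37.3 to 65.1 and 9.12 to 15.7 FPKM in the same order.

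Both subunits were thus higher in every PCOS library than in every other library. *Psmb8* rose by 1.76 in PCOS vs Control (SE 0.15, limma, adjusted p = 9.49e-05) and *Psmb9* by 1.49 (SE 0.18, adjusted p = 0.00057). In PCOS-MV vs PCOS the differences were -1.25 (adjusted p = 0.00735) and -1.94 (adjusted p = 0.00048). The 2 genes of the list that were higher in PCOS-MV were *Ifngr1*, the binding chain of the interferon gamma receptor, by 0.28 (adjusted p = 0.0281), and *Cmtm4*, which protects PD-L1 from breakdown, by 0.44 (adjusted p = 0.0332). Both calls were lost with some libraries left out, *Ifngr1* in 4 and *Cmtm4* in 5 of 8 cases. *Cd274* itself, as given above, was called in no comparison.

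Of the other checkpoint ligands and receptors, 12 of 26 listed genes were tested. In PCOS compared with Control, 1 was higher and 4 lower, beside 11.9% and 15.6% of all genes, with a median of -0.14 beside -0.03. In PCOS-MV compared with PCOS, 4 were higher and 1 lower, beside 14.3% and 11.4%, with a median of 0.20 beside 0.03. The count of 4 fell to 2 in 5 of the 8 cases with 1 library left out. The gene counted as higher in PCOS and as lower in PCOS-MV was *Cd96*. It reached the minimum of 1 FPKM only through the PCOS libraries, so its part in these counts and medians is no result. *Tnfrsf9*, named after its values were seen, was counted as lower in PCOS and as higher in PCOS-MV. Its mean over the 12 libraries was 1.03 FPKM, and it reached the minimum only through the Control and PCOS-MV libraries. Its part in these counts and medians is therefore no result either. None of the 12 was called in PCOS-MV vs Control. *Nectin2*, an adhesion protein that TIGIT and CD226 of T cells and natural killer cells bind, measured 29.1 to 49.1 FPKM in the Control, 19.3 to 22.7 in the PCOS and 34.6 to 43.2 in the PCOS-MV libraries. It was lower by 0.87 in PCOS than in Control (limma, adjusted p = 0.00366) and higher by 0.91 in PCOS-MV than in PCOS (adjusted p = 0.00035). *Cd96*, a receptor of T cells and natural killer cells for the nectin family, reached the minimum of 1 FPKM only through the PCOS libraries, so its values come from the fit with no minimum. Its difference was 1.12 in PCOS vs Control (limma, adjusted p = 0.00172), while PCOS-MV vs PCOS gave -0.97 (adjusted p = 0.00303). Its level was 0.349 to 0.797 FPKM in the Control, 1.65 to 2.77 in the PCOS and 0.551 to 0.903 in the PCOS-MV libraries.

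*Tnfsf18*, the ligand of the costimulator GITR, measured 1.26, 3.53, 1.74 and 1.89 FPKM in the Control libraries, 0.0856, 0.0487, 0 and 0.0670 in the PCOS libraries and 2.88, 10.4, 0.229 and 7.998 in the PCOS-MV libraries. It was near 0 in PCOS, as *Vtcn1* was low there, but in PCOS-MV replicate 3, where *Vtcn1* was highest, it was lowest. Its difference was -1.52 in PCOS vs Control (limma, adjusted p = 0.00105, but 0.0605 in 1 model for all 12 libraries) and 2.16 in PCOS-MV vs PCOS (SE 0.61, adjusted p = 0.0325). The latter call held in 1 of the 8 cases with a library left out, namely without PCOS-MV replicate 3, where the difference was 2.81 (adjusted p = 0.00115).

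The list of T cell receptor and costimulation signaling, the pathway on which B7 ligands act, had 16 tested genes. In PCOS compared with Control, 1 was higher and 1 lower, beside 11.9% and 15.6% of all genes, with a median of -0.002 beside -0.03. In PCOS-MV compared with PCOS, 1 was higher and 3 lower, shares near the 14.3% and 11.4% of all genes, with a median of -0.03 beside 0.03, and with 1 library left out the count lower ranged from 1 to 3. None was called in PCOS-MV vs Control. *Pik3r1*, the regulatory subunit of PI3-kinase, measured 16.0 to 24.1 FPKM in the Control, 29.3 to 36.7 in the PCOS and 18.7 to 20.9 in the PCOS-MV libraries, and its difference in PCOS-MV vs PCOS was -0.72 (limma, adjusted p = 0.00063). *Lck*, the kinase that starts T cell receptor signals, differed by -0.49 (adjusted p = 0.0492) and *Vav1*, an exchange factor of blood cells, by 0.38 (adjusted p = 0.0449). Each of these calls held in only 2 of the 8 cases with a library left out.

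The genes with the profile most like that of *Vtcn1* were sought among all tested genes, by the root mean square difference between mean-centered log2(FPKM + 1) values over the 12 libraries. The nearest 8 were *Syt13* (0.42), *Gadd45a* (0.44), *Slc51a* (0.44), *Dusp14* (0.47), *Akr1c3* (0.53), *Bcat1* (0.53), *Tub* (0.54) and *Klhdc8a* (0.55), where a flat profile would differ from *Vtcn1* by 1.72. Their fall in PCOS and their shape within each group follow from this choice and are no further finding. They include *Syt13*, a synaptotagmin of vesicle transport, *Gadd45a*, a stress and growth-arrest gene, *Slc51a*, a subunit of the organic solute transporter for bile acids and steroids, and *Bcat1*, which starts the breakdown of branched-chain amino acids.

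*Syt13* measured 36.9 to 73.1 FPKM in the Control, 3.69 to 6.29 in the PCOS and 27.4 to 80.1 in the PCOS-MV libraries. *Gadd45a* measured 99.8 to 168 FPKM, 18.8 to 33.5 FPKM and 93.5 to 369.6 FPKM in the same order. *Akr1c3*, an aldo-keto reductase that the luteal marker list held under an older symbol, was the most abundant of the 8, with 833 to 3428 FPKM, 221 to 460 FPKM and 1466 to 4692 FPKM. In all 8 genes, as chosen for likeness to *Vtcn1*, PCOS-MV replicate 3 was the highest of the PCOS-MV libraries. None of the other tested members came near: by the same measure *Icoslg* ranked 1448 of 13429 genes, *Cd86* 3113, *Cd276* 7464 and *Cd274* 9684. *Cd80* and *Pdcd1lg2* were not ranked. A gene that changes little lies near the flat value of 1.72 by this measure, so these ranks are no further result about the family.

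**Figure D4:**
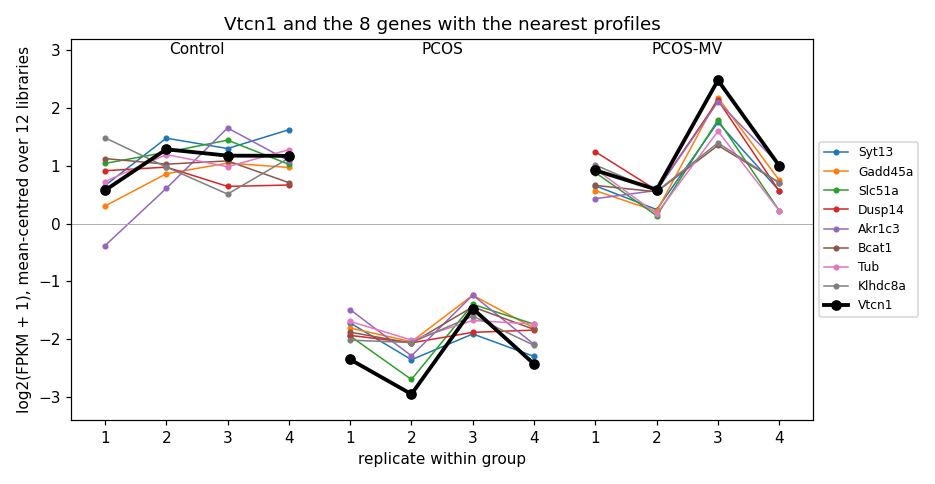
log2(FPKM + 1), mean-centered over 12 libraries (vertical axis), of *Vtcn1* (black) and the 8 genes nearest to it, by replicate within each group, where lines only join the points of 1 gene. All 9 genes are lowest in the 4 PCOS libraries and highest among the PCOS-MV libraries in replicate 3, which the choice by likeness fixes.

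In the coordinates of the authors' file, 8 genes lay within 500000 bases of *Vtcn1*, and 7 of them were tested. *Man1a2*, a mannosidase of the Golgi, was lower by 0.67 in PCOS than in Control (limma, adjusted p = 0.00091) and higher by 0.87 in PCOS-MV than in PCOS (adjusted p = 0.0479). *Igsf3*, an immunoglobulin superfamily protein, was lower by 0.86 (adjusted p = 0.0126) and higher by 0.71 (adjusted p = 0.00968). *Cd2*, an adhesion receptor of T cells, was higher by 0.40 in PCOS (adjusted p = 0.0481). Of all genes, 15.6% were called lower and 11.9% higher in PCOS than in Control, and 14.3% were called higher in PCOS-MV than in PCOS. The calls of the neighbours were not examined with a library left out. The nearest tested neighbours on either side, *Trim45* at 25696 bases and *Man1a2* at 156580 bases, thus differed in whether they were called, and *Trim45*, *Ttf2*, *Ptgfrn* and *Tent5c* were called in no comparison.

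Counts of called cell type markers are to be read beside the shares of all genes. In PCOS vs Control, 11.9% of all genes were called higher and 15.6% lower. In PCOS-MV vs PCOS these shares were 14.3% and 11.4%. Of 9 tested luteal markers, 7 were lower and 1, *Lhcgr*, higher in PCOS than in Control, and 5 were higher and 1, again *Lhcgr*, lower in PCOS-MV than in PCOS. Their mean log2(FPKM + 1) was 8.37 to 8.68 in the Control and 7.09 to 7.71 in the PCOS libraries, and 8.77, 7.71, 8.97 and 7.92 in PCOS-MV replicates 1 to 4, so that replicate 3, the highest in *Vtcn1*, was also the highest here. The other groups did not share this order. Control replicate 1 was highest in luteal markers (8.68) and lowest in *Vtcn1*. PCOS replicate 1 was highest in luteal markers (7.71), while *Vtcn1* was highest in PCOS replicate 3. One of the 9, *Akr1c3*, is among the genes nearest to *Vtcn1*. Of 11 granulosa markers, 5 were higher in PCOS and 4 lower in PCOS-MV vs PCOS. Of 8 theca markers, 4 were higher and 2 lower in PCOS, and 1 was higher and 5 lower in PCOS-MV vs PCOS. The part of these cell types in the *Vtcn1* values was not tested.

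**Figure D5:**
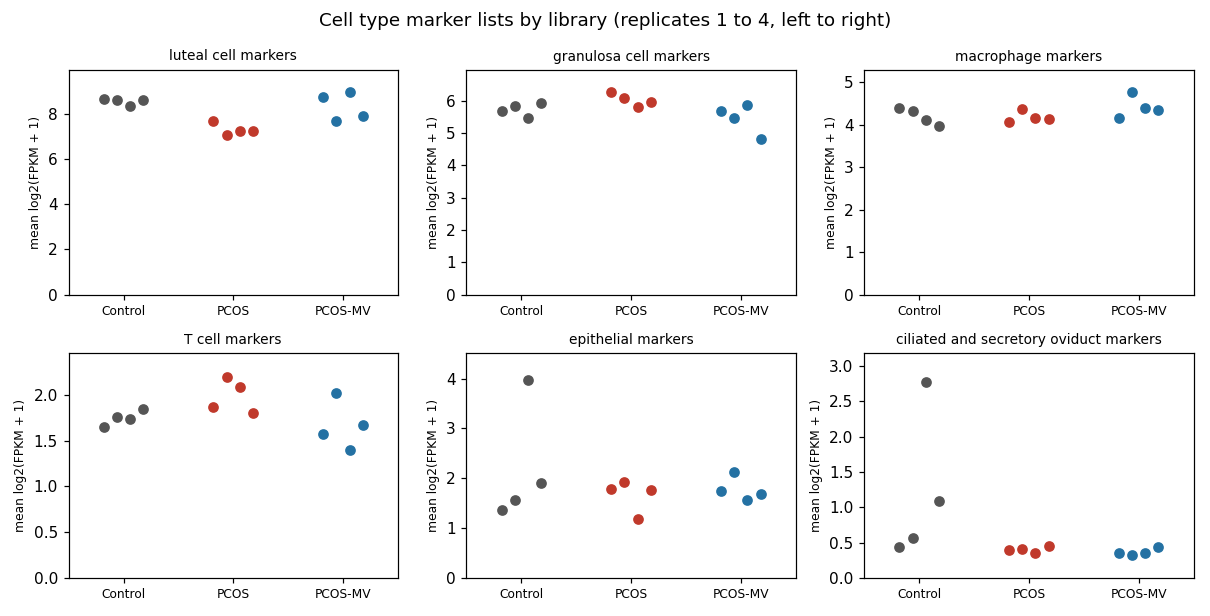
Mean log2(FPKM + 1) (vertical axes from 0 that differ between panels) of 6 cell type marker lists in the 3 groups, with 1 point per library. The luteal markers are at 8.37 to 8.68 in the Control and 7.09 to 7.71 in the PCOS libraries. Control replicate 3 stands apart in the epithelial markers (3.97) and in the list titled ciliated and secretory oviduct markers (2.77), which lacks *Foxj1* and *Ovgp1*.

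Epithelium, which in the reproductive tract carries B7-H4, was followed by 17 markers. Their mean log2(FPKM + 1) was 3.97 in Control replicate 3, against 1.37 to 1.90 in the other Control, 1.18 to 1.92 in the PCOS and 1.57 to 2.12 in the PCOS-MV libraries. The list of ciliated and secretory oviduct markers was analysed without *Foxj1* and *Ovgp1*, so its 7 measured genes do not identify the oviduct. Their mean was also highest in Control replicate 3, at 2.77 against 0.323 to 1.08 in the others. *Vtcn1* was at 99.2 FPKM there, between the values of the other Control libraries, while *Epcam* was at 32.3 FPKM against 1.20 to 2.90. Of 14 tested epithelial markers, 2 were higher and 1 lower in PCOS than in Control, beside 11.9% and 15.6% of all genes. In PCOS-MV vs PCOS 1 was higher and 3 lower, beside 14.3% and 11.4%.

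Macrophages and dendritic cells are among the cells that carry B7 ligands, and their marker lists had values above 0 in all libraries. The common leukocyte marker *Ptprc* ranged from 5.02 to 13.6 FPKM over the 12 libraries. Macrophage markers had a mean log2(FPKM + 1) of 3.97 to 4.39 in the Control, 4.06 to 4.38 in the PCOS and 4.16 to 4.78 in the PCOS-MV libraries, and these ranges overlapped. Of 12, 2 were higher in PCOS, *Csf1r* and *Adgre1*. In PCOS-MV vs PCOS the same 2 were lower, by 0.33 and 0.68 (limma, adjusted p = 0.0196 and 0.00738). There 3 were higher, among them *Cd68*, by 0.77 (limma, adjusted p = 0.00266). For the dendritic markers the ranges were 2.34 to 2.42, 2.06 to 2.45 and 2.24 to 2.60, with 2 of 7 lower in PCOS. Of the lymphocyte markers, 2 of 7 T cell markers and the 1 tested B cell marker were higher in PCOS, and 1 of each was lower in PCOS-MV vs PCOS. Of the smooth muscle markers 1 of 6 was higher in PCOS and lower in PCOS-MV, and of 5 oocyte and 2 ciliated cell markers none was called. In lists this short, counts near the shares of all genes given above are no result about these cells.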

How the data were processed

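RNA was extracted from ovaries with Trizol and sequenced on an Illumina platform in 12 libraries, 4 per group, assigned to groups by their titles. According to the study's methods, the FPKM values that the authors deposited were made from filtered reads by alignment with HISAT2, gene counts from featureCounts and division by gene length. The submitters' processing notes instead list STAR 2.5.1b and HTSeq 0.6.0. The genome build is not given in the sources used here. The deposited table repeats a gene on 26928 transcript lines with the same values, and 1 line per gene was kept. The columns of the third group are headed MG in the table and were read as PCOS-MV. The authors' own group means, fold changes, p-values and adjusted p-values in the same table were not used.

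The main test was limma 3.58.1 (lmFit, eBayes with trend) in R 4.3.3 on log2(FPKM + 1), 2 groups at a time, over the 13430 genes that reached 1 FPKM on average, with Benjamini-Hochberg adjustment and a threshold of 0.05. Single genes were also compared by exact two-sided permutation tests in Python 3.11.15 with scipy 1.17.1. The limma script was tested on simulated data first. FPKM give no read number, so no counting error can be stated.

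The members and the gene lists (receptors, butyrophilins, checkpoints, interferon response, T cell signaling and 12 cell type marker lists) were chosen with earlier results of these data known. Of 206 listed genes, 3 were matched by an older symbol and 12 were not analysed here. The named genes were the members, their receptors, the 8 genes nearest in profile, the defining markers, and from each pathway list up to 2 rises and 2 falls called in PCOS-MV vs PCOS. Neighbours of *Vtcn1*, *Senp1*, *Csf1r*, *Adgre1* and the genes said to be so were named after their values were seen. Promoter sequences came from RefSeq (GRCr8), where all 7 members matched, with 9 windows, and none of its coordinates were joined to those of the authors' file. Alternatives were the pseudocount of 0.1, no filter, 1 model for the 12 libraries, the replicate number as a block, libraries rescaled by their median ratio, and each library left out.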

Additional observations from a re-analysis of the deposited data

Results flagged for a closer look

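In each of 63 groups of 4 libraries, taken from 21 genes of the family, its receptors and its relatives, the gap between the highest or lowest library and the nearest other one was divided by the range of the group. In 8 groups it exceeded the critical value of Dixon's test at the 95% level, where chance alone would flag about 3.15, or 1 in 20. *Vtcn1* was flagged in the PCOS-MV group (0.878), where replicate 3 had 247 FPKM and the others 65.7 to 87.8. *Btn2a2* was flagged in the Control group (0.936) through replicate 1, at 2.06 FPKM against 2.87 to 2.92. *Rgmb* was flagged in the Control group (0.849) through replicate 3, the library high in epithelial and ciliated cell markers, at 15.0 FPKM against 7.10 to 8.29. The remaining ones lie near 0: *Pdcd1lg2* in the Control (0.961) and PCOS groups (0.871), *Pdcd1* in the PCOS-MV group (1), with 3 libraries listed at 0, *Vsig4* in the PCOS group (0.929) and *Mog* in the Control group (0.834), none above 0.280 FPKM.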

How the results depend on the processing

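*Vtcn1* kept its direction and its side of the threshold in PCOS-MV vs PCOS under each alternative run, and *Cd276*, *Icoslg*, *Cd274* and *Cd86* were called under none. With 1 library left out, some uncalled differences turned their sign. In PCOS-MV vs Control the ranges were -0.22 to 0.42 for *Vtcn1* and -0.024 to 0.26 for *Icoslg*, both lowest without PCOS-MV replicate 3, -0.23 to 0.093 for *Rgmb*, -0.092 to 0.26 for *Btnl9* and -0.10 to 0.14 for *Nectin2*. In PCOS-MV vs PCOS they were -0.21 to 0.02 for *Cd274* and -0.19 to 0.13 for *Cd28*, which had -0.0097 with rescaled libraries. *Rgmb* ranged from -0.18 to 0.15 in PCOS vs Control, highest without Control replicate 3. *Tnfsf18* was not called in PCOS vs Control in 1 model for all libraries (adjusted p = 0.0605, limma). The numbers of genes called were 2762 to 3915 for PCOS vs Control (3684 with all libraries), 2445 to 3354 for PCOS-MV vs PCOS (3448 with all) and 1 to 4 for PCOS-MV vs Control (1 with all).

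With the replicate number as a block, 2905, 3079 and 0 genes were called in the 3 comparisons. The block changed no call of a family member, but *Ifngr1*, *Cmtm4* and *Lck* lost theirs in PCOS-MV vs PCOS (adjusted p = 0.0679, 0.0544 and 0.0625, limma). Same-numbered libraries deviated together with correlations of -0.033 to 0.024 between Control and PCOS, 0.035 to 0.172 between PCOS and PCOS-MV, where every library correlated best with its own number, and -0.053 to 0.216 between Control and PCOS-MV. Since not every one of these correlations was over 0.1, and the labels name no shared batch, the numbers were not taken as pairs. FPKM without read counts limit what can be said of *Cd80*, *Pdcd1lg2*, *Pdcd1*, *Ctla4* and *Icos*.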
